A study of Mus musculus with 6 samples.

Results

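Toll-like receptors and the co-receptor Cd14 were followed as 10 genes, Tlr1, Tlr2, Tlr3, Tlr4, Tlr6, Tlr7, Tlr8, Tlr9, Tlr13 and Cd14, taken by symbol from the 22098 gene symbols of the deposited table. Poly(A) RNA had been sequenced from cultured C57BL/6 mouse bone marrow cells transformed with the leukaemia kinase BCR-ABL p185, delivered by a retrovirus with a YFP reporter and labelled as pro-B acute lymphoblastic leukaemia. The marrow was homozygous for a mutation of the first zinc finger of Ikaros (Ikaros_ZnF1-/-, here ZnF1 mutant), homozygous for a mutation of the fourth (Ikaros_ZnF4-/-, here ZnF4 mutant), or wild type. All 3 genotypes carried BCR-ABL, and each gave 1 library at day 21 and 1 at day 28 of culture, thus n = 2 per genotype. The labels do not say whether the days came from separate cultures or how many mice gave the marrow, and the marrow was transduced as a whole suspension, not as sorted B cell precursors. A feature of a single culture and its genotype therefore cannot be told apart, and the p-values measure the spread between these libraries only.

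Toll-like receptors are membrane proteins that sense microbial products through an outer leucine-rich domain and signal through an inner TIR domain. Receptors for lipids and lipoproteins sit at the cell surface and receptors for nucleic acids in endosomes, and most of them recruit the adaptor Myd88, which leads to NF-κB and interferon regulatory factors. Macrophages and monocytes express most of the family together with the lipopolysaccharide carrier Cd14, while mouse B cells are known for Tlr4, its relative Cd180, Tlr7 and Tlr9. Ikaros (Ikzf1) is a DNA-binding factor required for B cell development.

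Values are RPKM as deposited, read numbers corrected for how long a transcript is and how many reads its library holds, rounded to 1 decimal. Differences were taken in log2(RPKM + 1) and carry a standard error (SE) from 1 limma fit of genotype and day to all 6 libraries. A gene was called when its Benjamini-Hochberg adjusted p over all 11379 tested genes was below 0.05. The scale understates the change of low genes, so RPKM ratios of each day are given as well. All 10 genes reached 1 RPKM in at least 2 libraries and were tested. Tlr1 and Tlr3 passed through the ZnF1 libraries alone, and Tlr6 through the libraries of both mutants. Among genes of the lists used below, Irak2, Cebpb and Cxcl10 also passed through the ZnF1 libraries alone. Cebpa (1.3 and 0.9 RPKM in wild type cells) and Ccl4 (0.8 and 1 RPKM) were below 1 RPKM in both ZnF4 libraries. They too needed the ZnF1 libraries to pass. Il18 passed through the libraries of both mutants. The counts of called list genes thus include genes that were tested because they are high in a mutant.

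The libraries were first set against their labels. Ikzf1, the mutated gene, showed 108 and 91.4 RPKM in ZnF1 mutant cells at day 21 and day 28, 186 and 165.9 RPKM in ZnF4 mutant cells, and 89.2 and 78.7 RPKM in wild type cells, values over a whole transcript that cannot show the loss of a single finger. B cell markers (12 genes, among them Cd79a and Pax5) summed to between 3457.3 and 3713.9 RPKM in the 6 libraries. Macrophage markers (15 genes, among them Csf1r, Itgam, Cd68 and C1qa) summed to 2928.4 and 2967.4 RPKM in ZnF1 mutant cells at day 21 and day 28, 339 and 403.7 RPKM in ZnF4 mutant cells, and 749.2 and 482.2 RPKM in wild type cells. None of the 15 was at 0 in every library, and 1 stayed below 1 RPKM throughout. Of the tested markers 14 of 14 were called higher in the ZnF1 mutant, beside 22.9% of all tested genes. In the ZnF4 mutant 8 of 14 were called lower, beside 7.32% of all tested genes. Stromal markers (13 genes) summed to 158 and 146.1 RPKM in ZnF1 mutant cells, 36.7 and 29.1 RPKM in ZnF4 mutant cells, and 55.4 and 43.7 RPKM in wild type cells. Of 13 granulocyte markers 10 stayed below 1 RPKM throughout, with Mpo, Elane, Ltf and Cxcr2 at 0 in every library, and the list summed to 98.2 and 103.7 RPKM in ZnF1 mutant cells, 9.4 and 37.2 RPKM in ZnF4 mutant cells, and 14.1 and 14.8 RPKM in wild type cells. Of 12 dendritic cell markers 7 stayed below 1 RPKM, with Ccr9 and Cd209a at 0 in every library, and sums were 62.4 and 73.1 RPKM in ZnF1 mutant cells, 34.3 and 45.4 RPKM in ZnF4 mutant cells, and 27 and 19.6 RPKM in wild type cells. Of the tested markers, 2 of 2 granulocyte, 4 of 4 dendritic cell and 8 of 10 stromal genes were called higher in the ZnF1 mutant. These counts stand beside 22.9% of all tested genes. The few granulocyte and dendritic cell genes tested come from lists with the highest sums in the ZnF1 libraries. Through which libraries these genes passed the filter is not given here, so they do not show a rise beyond macrophage markers. Stromal markers were higher in the ZnF1 mutant by sum as well as by count. In the ZnF4 mutant 4 of 10 stromal genes were called lower, and no tested granulocyte or dendritic cell gene was called.

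**Figure D1:**
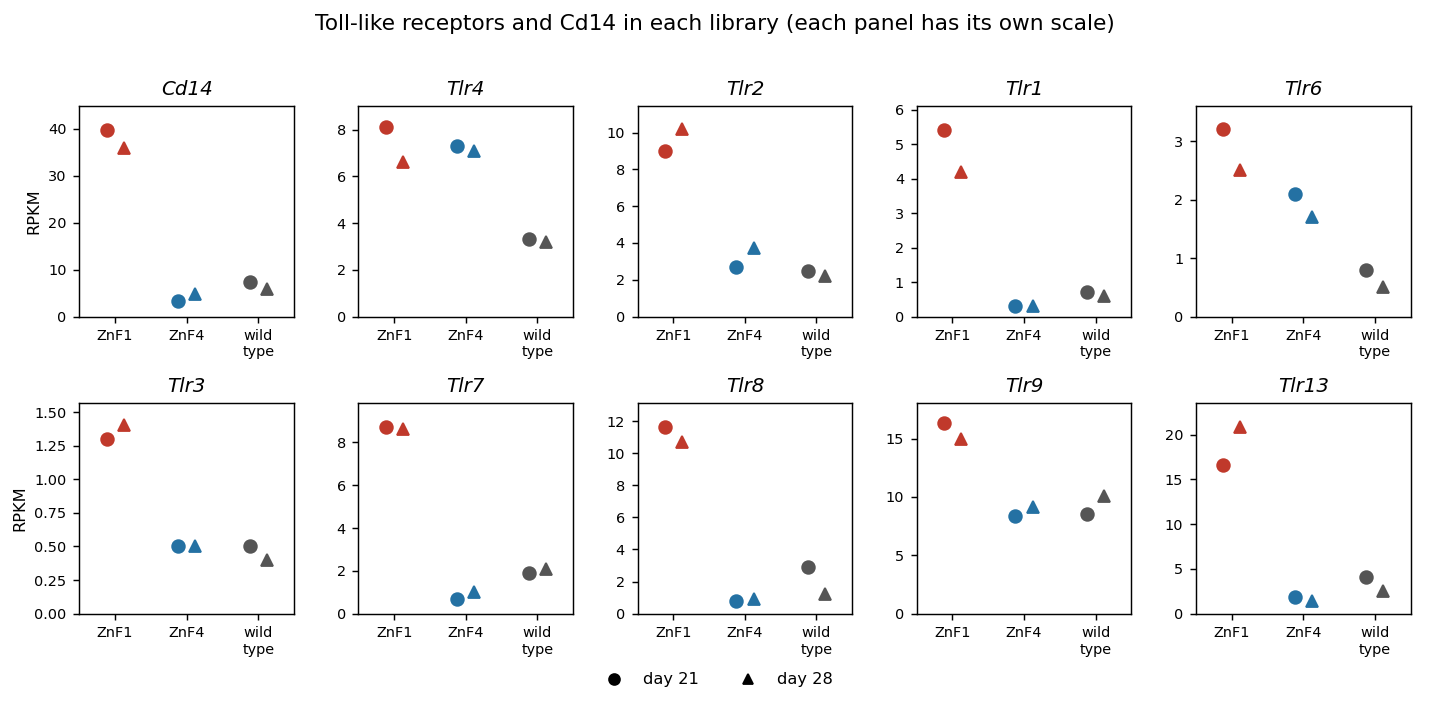
RPKM (y axis, from 0, a separate scale per gene) of the 9 toll-like receptors and Cd14 in each library, by genotype (x axis). Circles are day 21 and triangles day 28, with no averaging. In every panel both ZnF1 points lie above both wild type points, and in the panels of Tlr2, Tlr4 and Tlr6 both ZnF4 points do so too. The share of all tested genes that separate in this way was not counted, so the panels only describe these genes.

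In the ZnF1 mutant each of the 10 genes was called higher than in wild type. Across all tested genes 22.9% were called higher and 15.2% lower in this comparison. The count of 10 includes Tlr1, Tlr3 and Tlr6, which passed the filter through mutant libraries alone. Without the filter on low values all 10 were also called higher, beside 3130 higher and 1267 lower of 15231 genes. By the ratio of mean RPKM Tlr1 (7.38), Cd14 (5.76), Tlr13 (5.67) and Tlr8 (5.44) were the most raised and Tlr9 (1.68) the least, while at day 21 alone Tlr7 (4.58) was above Tlr13 and Tlr8. With quantile scaling 2114 genes were called higher and 2879 lower in this comparison, against 2606 higher and 1730 lower with RPKM as deposited. Under that scaling 9 of the 10 genes were still called higher, the exception being Tlr3.

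In the ZnF4 mutant Tlr4 and Tlr6 were called higher than in wild type (2 of 10, beside 10.9% of all tested genes), Tlr7 was called lower (1 of 10, beside 7.32% of all tested genes), and 7 were not called. These counts lie near the shares over all genes, and each of the 3 calls ended when any 1 of the ZnF4 or wild type libraries was left out. Against the ZnF1 mutant 9 of 10 were called lower in the ZnF4 mutant, beside 23.2% of all tested genes, and Tlr4 was the exception. The 9 include Tlr1 and Tlr3, which passed the filter through the ZnF1 libraries alone. Without the filter 9 were called lower as well, beside 3363 lower and 2199 higher of 15231 genes. These comparisons share libraries, so they are not independent of each other.

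**Figure D2:**
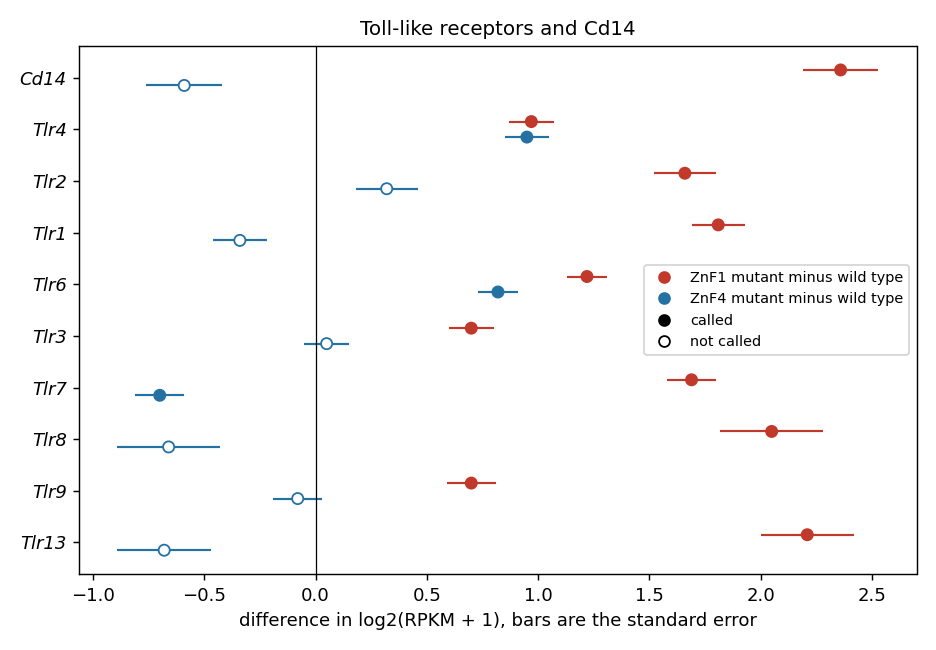
Difference in log2(RPKM + 1) from wild type (x axis) for each gene (y axis), with the ZnF1 mutant in red above the ZnF4 mutant in blue, bars being the SE and filled points the called differences. All red points are filled and right of 0, while filled blue points are Tlr4 and Tlr6 to the right and Tlr7 to the left.

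Cd14, the surface protein that hands lipopolysaccharide to Tlr4, was the most abundant of the 10 genes in the ZnF1 mutant. It had 39.7 and 35.8 RPKM in ZnF1 mutant cells at day 21 and day 28, 3.4 and 4.7 RPKM in ZnF4 mutant cells, and 7.3 and 5.8 RPKM in wild type cells. The 3 genotypes did not overlap. The ZnF1 libraries were 5.44-fold above wild type at day 21 and 6.17-fold at day 28 (log2 difference 2.36 ± 0.17 SE, adjusted p = 0.00109). The ZnF4 libraries lay at 0.466 and 0.81 of the wild type level, a difference of -0.59 ± 0.17 that was not called (adjusted p = 0.0754). Per 1000 RPKM of summed macrophage markers Cd14 amounted to 13.6 and 12.1 RPKM in ZnF1 mutant cells, 10 and 11.6 RPKM in ZnF4 mutant cells, and 9.74 and 12 RPKM in wild type cells. Cd14 thus kept within a narrow range of the markers in libraries whose marker sums were far apart. The part that macrophage content plays in the Cd14 difference was not tested, and in bulk RNA fewer cells of a type and less RNA per cell cannot be told apart.

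Tlr4, the lipopolysaccharide receptor, was higher in both mutants. It had 8.1 and 6.6 RPKM in ZnF1 mutant cells at day 21 and day 28, 7.3 and 7.1 RPKM in ZnF4 mutant cells, and 3.3 and 3.2 RPKM in wild type cells. The mutants overlapped with each other and neither overlapped with wild type. The ratio to wild type was 2.45 and 2.06 in ZnF1 mutant cells (0.97 ± 0.10, adjusted p = 0.00216) and 2.21 and 2.22 in ZnF4 mutant cells (0.95 ± 0.10, adjusted p = 0.0045). Between the mutants Tlr4 differed by -0.02 ± 0.10 (ZnF4 minus ZnF1, 95% interval -0.28 to 0.24, adjusted p = 0.883). Leaving out any 1 of the ZnF4 or wild type libraries ended the ZnF4 call, with differences of 0.89 to 1.005 and adjusted p of 0.0568 to 0.0769. Per 1000 RPKM of macrophage markers Tlr4 amounted to 2.77 and 2.22 RPKM in ZnF1 mutant cells, 21.5 and 17.6 RPKM in ZnF4 mutant cells, and 4.4 and 6.64 RPKM in wild type cells. The macrophage marker sums were lowest in the ZnF4 libraries, and their part in the Tlr4 differences was not tested.

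The 3 other surface receptors, Tlr2, Tlr1 and Tlr6, sense bacterial lipoproteins, with Tlr2 pairing with either Tlr1 or Tlr6. Tlr2 had 9 and 10.2 RPKM in ZnF1 mutant cells at day 21 and day 28, 2.7 and 3.7 RPKM in ZnF4 mutant cells, and 2.5 and 2.2 RPKM in wild type cells. Its ZnF1 libraries were 3.6-fold and 4.64-fold above wild type (1.66 ± 0.14, adjusted p = 0.00133). Its ZnF4 libraries lay just above wild type without overlap, a difference of 0.32 ± 0.14 that was not called (adjusted p = 0.183).

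Tlr1 and Tlr6 are neighbouring genes on mouse chromosome 5, and they took different courses in the ZnF4 mutant. Tlr1 had 5.4 and 4.2 RPKM in ZnF1 mutant cells, 0.3 RPKM in both ZnF4 libraries, and 0.7 and 0.6 RPKM in wild type cells. In the ZnF1 mutant it was 7.71-fold and 7-fold above wild type (1.81 ± 0.12, adjusted p = 0.00101). In the ZnF4 mutant the difference of -0.34 ± 0.12 was not called (adjusted p = 0.109), but it was called with a pseudocount of 0.1 (-0.90, adjusted p = 0.0354). Values this low are only a few rounding steps above 0.

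Tlr6 had 3.2 and 2.5 RPKM in ZnF1 mutant cells, 2.1 and 1.7 RPKM in ZnF4 mutant cells, and 0.8 and 0.5 RPKM in wild type cells. The genotypes did not overlap, with the ZnF1 mutant highest and wild type lowest. Tlr6 was 4-fold and 5-fold above wild type in the ZnF1 mutant (1.22 ± 0.09, adjusted p = 0.00126) and 2.62-fold and 3.4-fold above it in the ZnF4 mutant (0.82 ± 0.09, adjusted p = 0.00578). Leaving out any 1 of the ZnF4 or wild type libraries ended the ZnF4 call (adjusted p of 0.0556 to 0.0727). Tlr6 was lower in the ZnF4 mutant than in the ZnF1 mutant by -0.41 ± 0.09 (adjusted p = 0.0205). Removing the day term ended that call (adjusted p = 0.0822), as did quantile scaling (-0.08, adjusted p = 0.57) and leaving out any 1 of the 4 mutant libraries (adjusted p of 0.0615 to 0.103).

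The 2 transcripts resemble each other, and the sources used here do not say how reads matching both were assigned. In GENCODE M21 transcripts of these RefSeq entries, 20.3% of the 36-base words of Tlr1 occur in Tlr6 and 15.3% of those of Tlr6 occur in Tlr1, with a longest identical run of 229 bases. No other of the 45 pairs among the 10 genes shared such a word. The levels of Tlr1 and Tlr6 are therefore uncertain to that extent.

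The promoters of Tlr1, Tlr6, Tlr2 and Tlr9 are shown as examples of windows with 1 or both of the motifs searched, the Ikaros core GGGAA, and GAGGAAG, a core bound by the myeloid and B cell factor PU.1. The 250 bases before the annotated start are from RefSeq (GRCm38.p6, another build than the mm9 of the values), with both motifs in capitals on either strand. For Tlr1 and Tlr6 the more upstream of 2 annotated starts is printed, and 7 of the 10 genes matched an entry (not Tlr4, Tlr7 or Cd14).
Tlr1 (chr5:64933559-64933808, minus strand): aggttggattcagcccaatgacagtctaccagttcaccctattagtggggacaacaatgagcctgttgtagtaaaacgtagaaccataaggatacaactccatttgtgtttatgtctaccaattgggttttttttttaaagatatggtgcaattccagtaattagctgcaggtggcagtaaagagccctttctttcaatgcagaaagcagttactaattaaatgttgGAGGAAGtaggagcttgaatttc
Tlr6 (chr5:64960049-64960298, minus strand): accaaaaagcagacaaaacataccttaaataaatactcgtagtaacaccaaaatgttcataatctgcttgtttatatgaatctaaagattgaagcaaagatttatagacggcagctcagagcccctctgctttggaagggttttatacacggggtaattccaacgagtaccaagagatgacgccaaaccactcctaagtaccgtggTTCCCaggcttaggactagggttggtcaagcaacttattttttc
Tlr2 (chr3:83841609-83841858, minus strand): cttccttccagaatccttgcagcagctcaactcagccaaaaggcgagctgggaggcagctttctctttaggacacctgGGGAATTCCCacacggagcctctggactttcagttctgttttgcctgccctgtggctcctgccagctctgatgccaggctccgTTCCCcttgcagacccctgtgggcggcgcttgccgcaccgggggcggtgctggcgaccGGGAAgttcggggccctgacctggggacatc
Tlr9 (chr9:106222348-106222597, plus strand): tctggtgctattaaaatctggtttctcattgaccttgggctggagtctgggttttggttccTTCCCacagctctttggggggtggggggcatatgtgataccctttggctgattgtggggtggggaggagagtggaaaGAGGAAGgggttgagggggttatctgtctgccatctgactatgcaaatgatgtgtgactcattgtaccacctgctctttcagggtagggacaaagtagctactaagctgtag
The Tlr1 window holds GAGGAAG and no GGGAA, the Tlr6 window GGGAA and no GAGGAAG, the Tlr2 window GGGAA 4 times, and the Tlr9 window both motifs. The window at the other Tlr1 start holds neither motif, so the GAGGAAG difference from Tlr6 rests on the start printed. GGGAA is absent at both Tlr1 starts and present at both Tlr6 starts. Of the windows not printed, Tlr3 holds GGGAA 3 times, Tlr8 once, and Tlr13 holds GAGGAAG. Of 32851 promoters 56.2% hold GGGAA and 10.6% hold GAGGAAG within the same length. In the Tlr2 window 2 of the GGGAA matches overlap on opposite strands as GGGAATTCCC, a palindrome of the NF-κB type that was picked after the sequence was seen and occurs in 11 of the 32851 windows. These are matches of letters, not measured binding.

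Among the endosomal receptors, Tlr7 and Tlr8 sense single-stranded RNA in mammals, and in the mouse Tlr13 senses bacterial ribosomal RNA. All 3 genes are on the X chromosome, with Tlr7 and Tlr8 next to each other. Tlr7 had 8.7 and 8.6 RPKM in ZnF1 mutant cells at day 21 and day 28, 0.7 and 1 RPKM in ZnF4 mutant cells, and 1.9 and 2.1 RPKM in wild type cells. The genotypes were apart without overlap, the ZnF4 mutant being lowest. Tlr7 was 4.58-fold and 4.09-fold above wild type in the ZnF1 mutant (1.69 ± 0.11, adjusted p = 0.001). In the ZnF4 mutant it fell to 0.368 and 0.476 of the wild type level (-0.70 ± 0.11, adjusted p = 0.012). This fall was no longer called without the filter on low values (adjusted p = 0.0519) or without any 1 of the ZnF4 or wild type libraries (adjusted p of 0.0651 to 0.128).

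Tlr8 had 11.6 and 10.7 RPKM in ZnF1 mutant cells, 0.8 and 0.9 RPKM in ZnF4 mutant cells, and 2.9 and 1.2 RPKM in wild type cells. The wild type libraries of the 2 days stood apart by more than those of either mutant, so the ratio to wild type was 4-fold at day 21 and 8.92-fold at day 28 in the ZnF1 mutant (2.05 ± 0.23, adjusted p = 0.00255). The ZnF4 difference of -0.66 ± 0.23 was not called (adjusted p = 0.113).

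Tlr13 had 16.6 and 20.8 RPKM in ZnF1 mutant cells, 1.9 and 1.4 RPKM in ZnF4 mutant cells, and 4.1 and 2.5 RPKM in wild type cells. It was 4.05-fold and 8.32-fold above wild type in the ZnF1 mutant (2.21 ± 0.21, adjusted p = 0.00173), and its ZnF4 difference of -0.68 ± 0.21 was not called (adjusted p = 0.0867). On the log2(RPKM + 1) scale ZnF4 minus ZnF1 came to -2.95 ± 0.17 for Cd14 and -2.89 ± 0.21 for Tlr13, the widest of the 10 genes, with adjusted p = 0.000468 and 0.000639. By the ratio of mean RPKM (ZnF4 over ZnF1) Tlr1 was the widest at 0.062, followed by Tlr8 at 0.076, Tlr13 at 0.088, Tlr7 at 0.098 and Cd14 at 0.107. Per 1000 RPKM of macrophage markers Tlr13 amounted to 5.67 and 7.01 RPKM in ZnF1 mutant cells, 5.6 and 3.47 RPKM in ZnF4 mutant cells, and 5.47 and 5.18 RPKM in wild type cells. On the same footing Tlr8 lay between 2.23 and 3.96 RPKM and Tlr7 between 2.06 and 4.36 RPKM over the 6 libraries.

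Tlr9, which senses unmethylated CpG DNA and is known from B cells as well as myeloid cells, was the most abundant toll-like receptor in ZnF4 mutant and wild type cells. It had 16.3 and 15 RPKM in ZnF1 mutant cells, 8.4 and 9.1 RPKM in ZnF4 mutant cells, and 8.5 and 10.1 RPKM in wild type cells. The ZnF4 and wild type libraries overlapped, with a difference of -0.08 ± 0.11 (95% interval -0.34 to 0.19, adjusted p = 0.681). In the ZnF1 mutant Tlr9 was 1.92-fold and 1.49-fold above wild type (0.70 ± 0.11, adjusted p = 0.00667), and leaving out the day 21 library of the ZnF1 mutant (0.56, adjusted p = 0.0685) or of wild type (0.58, adjusted p = 0.0831) ended the call. Over all alternatives its adjusted p ran from 0.00601 to 0.0831. Tlr9 took 20.3% and 18.8% of the summed RPKM of the 9 receptors in ZnF1 mutant cells, 34% and 35.4% in ZnF4 mutant cells, and 33.7% and 44.3% in wild type cells. Per 1000 RPKM of macrophage markers it amounted to 5.57 and 5.05 RPKM in ZnF1 mutant cells, 24.8 and 22.5 RPKM in ZnF4 mutant cells, and 11.3 and 20.9 RPKM in wild type cells.

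Tlr3, the receptor for double-stranded RNA that signals through Ticam1, was the lowest of the 10 genes in the ZnF1 mutant and in wild type. It had 1.3 and 1.4 RPKM in ZnF1 mutant cells, 0.5 RPKM in both ZnF4 libraries, and 0.5 and 0.4 RPKM in wild type cells. The ZnF1 libraries were 2.6-fold and 3.5-fold above wild type (0.70 ± 0.10, adjusted p = 0.00614). Quantile scaling (0.30, adjusted p = 0.0567) and leaving out the day 28 wild type library (0.63, adjusted p = 0.0588) each ended that call, within a range of adjusted p from 0.00385 to 0.0588. The ZnF4 and wild type libraries overlapped (0.05 ± 0.10, 95% interval -0.21 to 0.31, adjusted p = 0.784). Of the receptors outside the 10 genes, Tlr5 reached at most 0.5 RPKM and Tlr12 at most 0.1 RPKM, and Tlr11 was listed at 0 throughout.

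**Figure D3:**
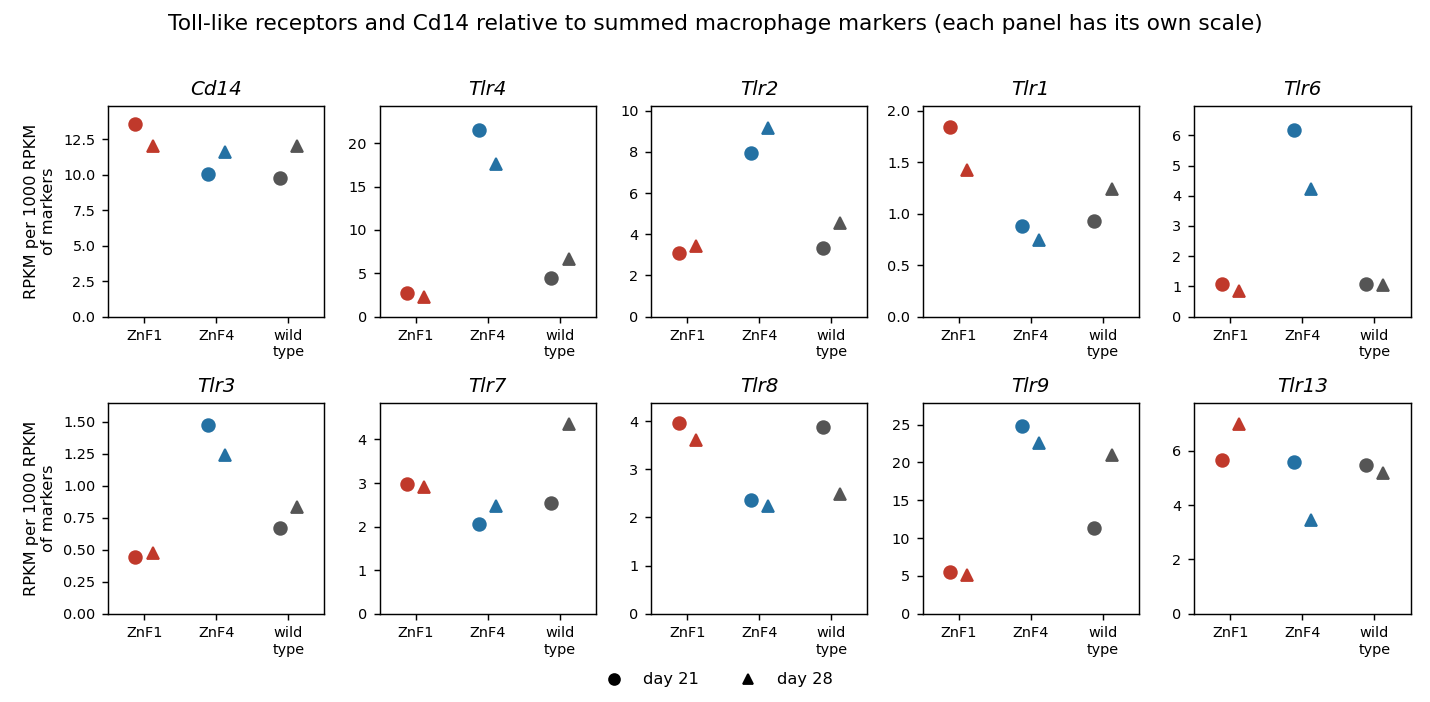
RPKM of each gene per 1000 RPKM of the summed 15 macrophage markers of the same library (y axis, from 0, a separate scale per gene), by genotype (x axis), circles being day 21 and triangles day 28. Cd14 stays between 9.74 and 13.6 in all 6 libraries, while Tlr4 is at 17.6 and 21.5 in the ZnF4 libraries and at 6.64 or below in the others.

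Together the 9 receptors summed to 80.2 and 80 RPKM in ZnF1 mutant cells at day 21 and day 28, 24.7 and 25.7 RPKM in ZnF4 mutant cells, and 25.2 and 22.8 RPKM in wild type cells. The sums of the ZnF4 mutant and wild type were close, but their make-up differed for some receptors. Tlr4 took 29.6% and 27.6% of the sum in ZnF4 mutant cells, against 13.1% and 14% in wild type cells. Tlr13 took 7.7% and 5.4% in ZnF4 mutant cells, against 16.3% and 11% in wild type cells. Tlr9, the largest part, took 34% and 35.4% against 33.7% and 44.3%, and Tlr3 took 2% and 1.9% against 2% and 1.8%. The shares were not tested, and the ZnF4 difference of Tlr13 itself was not called.

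Between the days no gene was called. Of 11379 tested genes 0 (0%) passed limma's threshold of an adjusted p below 0.05. At an unadjusted level of 0.05 limma counted 1631 genes, and of the 10 genes Tlr6 alone (day 28 minus day 21, -0.24 ± 0.08). None of the alternatives called a gene here. In wild type cells Tlr8 had 1.2 RPKM at day 28 against 2.9 RPKM at day 21 and Tlr13 had 2.5 against 4.1 RPKM, beside macrophage marker sums of 482.2 and 749.2 RPKM. Tlr9, in the same pair of libraries, had 10.1 RPKM at day 28 against 8.5 RPKM at day 21.

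The partners of Tlr4 were next compared, as part of a list of 21 genes for ligand binding, trafficking and processing of the receptors, 17 of them tested. In the ZnF1 mutant 11 were called higher and 0 lower, with a median difference of 0.60 against -0.02 over all tested genes, of which 22.9% were called higher and 15.2% lower. In the ZnF4 mutant 4 were called higher and 2 lower, with a median of 0.05 against 0.02 over all tested genes, of which 10.9% were called higher and 7.32% lower. Of the higher genes, 3 belong to the Tlr4 family of complexes: Ly96 (MD-2), which binds lipopolysaccharide with Tlr4, Cd180 (RP105), a Tlr4 relative of B cells, and Ly86 (MD-1), the partner of Cd180. The other was the collagen-degrading protease Ctsk.

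Ly86 had 12.6 and 10.8 RPKM in ZnF1 mutant cells at day 21 and day 28, 48.7 and 42.5 RPKM in ZnF4 mutant cells, and 5.4 and 7.3 RPKM in wild type cells. No genotypes overlapped, and the ZnF4 mutant was highest. Its ZnF1 difference was 0.80 ± 0.16 (adjusted p = 0.0164), and its ZnF4 difference of 2.67 ± 0.16 (adjusted p = 0.00114) stayed called under every alternative run. The ZnF1 call ended when either ZnF1 library or the day 21 wild type library was left out and when low values were not filtered (adjusted p up to 0.151), its difference being 0.51 without that wild type library.

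Cd180 had 27.2 and 26.4 RPKM in ZnF1 mutant cells, 33.5 and 27.7 RPKM in ZnF4 mutant cells, and 18.1 and 16.6 RPKM in wild type cells. Cd180 was called higher in both, by 0.60 ± 0.08 in ZnF1 mutant cells (adjusted p = 0.00477) and by 0.78 ± 0.08 in ZnF4 mutant cells (adjusted p = 0.00431). Ly96 had 10.2 and 11.2 RPKM in ZnF1 mutant cells, 10.2 and 10.1 RPKM in ZnF4 mutant cells, and 7.3 and 7 RPKM in wild type cells, with differences of 0.52 ± 0.09 (adjusted p = 0.00895) and 0.45 ± 0.09 (adjusted p = 0.0243). Either wild type library decided the 2 calls of Cd180, with adjusted p of up to 0.0804 without it, and the ZnF1 call also rested on the day 28 ZnF1 library (adjusted p = 0.0624 when it was left out). For Ly96 leaving out any 1 library of the genotypes compared ended the call (adjusted p up to 0.212), and leaving out either ZnF1 library or the filter on low values also ended the ZnF4 call.

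Unc93b1, the chaperone that carries nucleic acid-sensing receptors to endosomes, had 141.5 and 152.1 RPKM in ZnF1 mutant cells, 62.8 and 63.8 RPKM in ZnF4 mutant cells, and 97.7 and 95.7 RPKM in wild type cells. Unc93b1 rose in ZnF1 mutant cells (0.60 ± 0.07, adjusted p = 0.00315) and fell in ZnF4 mutant cells (-0.60 ± 0.07, adjusted p = 0.00596). Leaving out the day 28 wild type library ended the ZnF1 call at a difference of 0.55 (adjusted p = 0.0677), and leaving out any 1 ZnF4 or wild type library ended the ZnF4 call at differences of -0.65 to -0.56 (adjusted p up to 0.112). The endosomal proteases Ctsl (2.66 ± 0.25), Ctsb (2.13 ± 0.16), Lgmn (2.08 ± 0.16) and Ctss (1.93 ± 0.12) were called higher in the ZnF1 mutant, with adjusted p of 0.00168, 0.00122, 0.00127 and 0.001. Macrophages express these proteases strongly. None of the 4 was called in the ZnF4 mutant. Ctsl had -0.96 ± 0.25 (adjusted p = 0.0547), a difference called under both other scalings (adjusted p = 0.0271 and 0.0352), without the day term and with either ZnF1 library left out. Ctsb had -0.63 ± 0.16 (adjusted p = 0.0552), and it was called under median-ratio scaling (-0.66, adjusted p = 0.0349). The adhesion receptor gene Cd44 had 58.1 and 51.8 RPKM in ZnF1 mutant cells, 21.3 and 18.1 RPKM in ZnF4 mutant cells, and 37.1 and 31.2 RPKM in wild type cells. The genotypes were apart, with a ZnF1 difference of 0.67 ± 0.07 (adjusted p = 0.00187) and a ZnF4 difference of -0.76 ± 0.07 (adjusted p = 0.00248). Leaving out either wild type library ended the ZnF4 call at differences of -0.74 and -0.79 (adjusted p up to 0.0585).

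**Figure D4:**
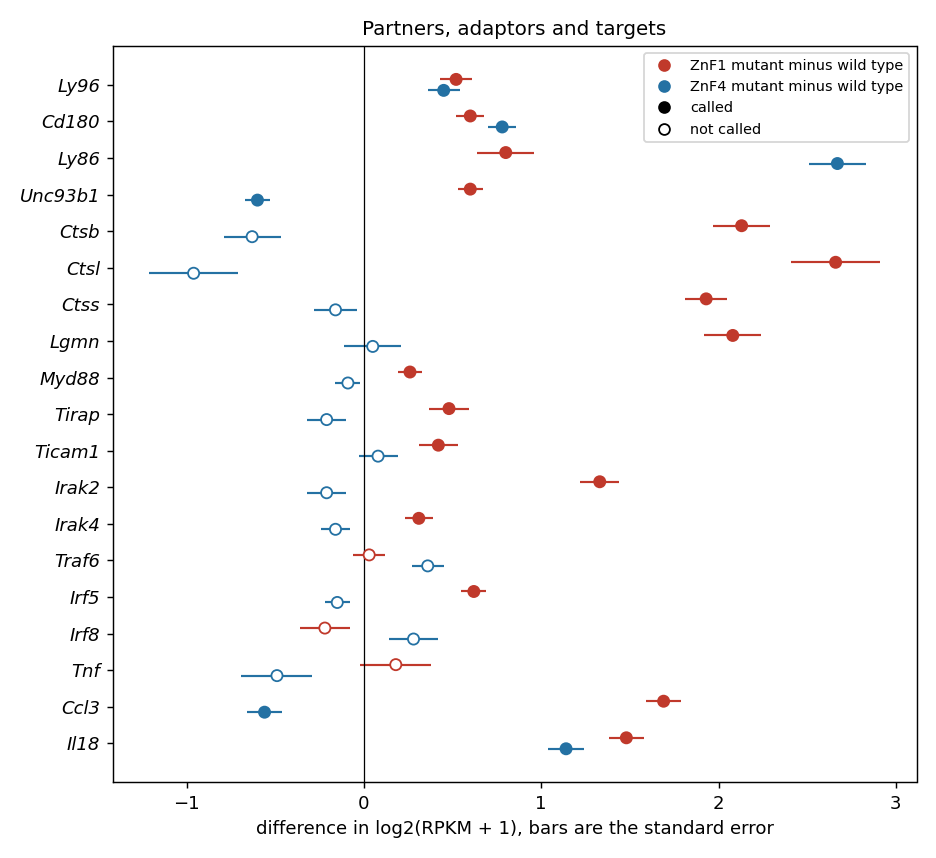
Difference in log2(RPKM + 1) from wild type (x axis) for partners, adaptors, transcription factors and targets of the receptors (y axis), with the ZnF1 mutant in red above the ZnF4 mutant in blue, bars being the SE and filled points the called differences. Ly96, Cd180, Ly86 and Il18 have filled points right of 0 for both mutants, and Unc93b1 and Ccl3 have filled points on opposite sides.

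Of 25 listed downstream adaptors and kinases 24 were tested, with 10 called higher and 0 lower in the ZnF1 mutant (median 0.18) and 0 called higher and 2 lower in the ZnF4 mutant (median -0.04). Over all tested genes the shares were 22.9% higher and 15.2% lower in the ZnF1 mutant and 10.9% higher and 7.32% lower in the ZnF4 mutant, so the 2 lower genes are near the share over all genes. Myd88, the common adaptor, had 20.8 and 23.8 RPKM in ZnF1 mutant cells, 16.3 and 18.3 RPKM in ZnF4 mutant cells, and 17.9 and 19 RPKM in wild type cells. Its difference in the ZnF1 mutant was 0.26 ± 0.07 (adjusted p = 0.0398), a call that ended when the day term was removed and when any 1 ZnF1 or wild type library was left out (adjusted p up to 0.266). The kinases Irak2 (1.33 ± 0.11, adjusted p = 0.00131) and Ikbke (1.04 ± 0.16, adjusted p = 0.00706) and the adaptor Pik3ap1 (1.17 ± 0.15, adjusted p = 0.0044) had larger differences. Irak2 passed the filter through the ZnF1 libraries alone. Ikbke lost its call when the day 21 ZnF1 library or either wild type library was left out (adjusted p up to 0.0979), and Pik3ap1 when the day 28 wild type library was (adjusted p = 0.0766). The kinase Irak4 (0.31 ± 0.08), the NF-κB kinase subunit Ikbkg (0.38 ± 0.09) and the Tlr3 adaptor Ticam1 (0.42 ± 0.11) were called higher, each call ending under quantile scaling and when any 1 ZnF1 or wild type library was left out (adjusted p up to 0.249). The ubiquitin ligase Traf6 was called in neither mutant (0.03 ± 0.09 for ZnF1, adjusted p = 0.837, and 0.36 ± 0.09 for ZnF4, adjusted p = 0.0588). The kinase genes Map3k8 (-0.86 ± 0.12) and Btk (-0.38 ± 0.09) were called lower in the ZnF4 mutant, and leaving out any 1 ZnF4 or wild type library ended both calls (adjusted p up to 0.12 and 0.33), as did keeping low values. The call of Btk (adjusted p = 0.0491) also ended under a pseudocount of 0.1, under quantile scaling, without the day term (adjusted p = 0.0859) and with either ZnF1 library left out, and its difference was -0.25 without the day 28 ZnF4 library.

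Of 14 transcription factors of the pathway 8 were called higher and 0 lower in the ZnF1 mutant (median 0.73), beside 22.9% and 15.2% of all tested genes. The ZnF4 mutant had 1 higher and 1 lower (median -0.05), which is near the 10.9% and 7.32% of all tested genes. Sfpi1, the gene of PU.1, had 84.4 and 83.2 RPKM in ZnF1 mutant cells, 40.2 and 46.5 RPKM in ZnF4 mutant cells, and 44.9 and 48.4 RPKM in wild type cells. The ZnF4 and wild type libraries overlapped and the ZnF1 libraries stood above both (0.83 ± 0.08, adjusted p = 0.00179). The stress factor Atf3 (2.03 ± 0.21), the NF-κB subunit Relb (0.99 ± 0.10) and Irf5 (0.62 ± 0.07), which acts downstream of Myd88, were also higher in the ZnF1 mutant, with adjusted p of 0.00216, 0.00185 and 0.00266. Irf5 was no longer called once the day 28 wild type library was left out (adjusted p = 0.0567). Irf8, shared by B cells and myeloid cells, was not called in either mutant (adjusted p = 0.265 and 0.247). Over the alternatives its difference ran from -0.36 to -0.08 in the ZnF1 mutant and from 0.03 to 0.53 in the ZnF4 mutant. It was called lower in the ZnF1 mutant without either ZnF4 library, and higher in the ZnF4 mutant without the day 21 ZnF4 library. Nfkb1 was higher (0.36 ± 0.07, adjusted p = 0.0296) and Irf1 lower (-0.73 ± 0.09, adjusted p = 0.00672) in the ZnF4 mutant. Leaving out any 1 ZnF4 or wild type library ended each call, at differences of 0.28 to 0.43 for Nfkb1 and -0.79 to -0.67 for Irf1. The call of Nfkb1 also ended without the filter on low values (adjusted p = 0.0683) and with either ZnF1 library left out.

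Inhibitors of the pathway were called higher in 4 and lower in 1 of 15 tested cases in the ZnF1 mutant (median 0.19), the higher ones being near the 22.9% of all tested genes and the lower one below the 15.2%. In the ZnF4 mutant 4 were called lower and 0 higher (median -0.19), beside 7.32% and 10.9% of all tested genes. Socs1, a feedback inhibitor of cytokine and toll-like receptor signalling, had 9.6 and 16.7 RPKM in ZnF1 mutant cells, 1.3 and 1.9 RPKM in ZnF4 mutant cells, and 6.4 and 9.9 RPKM in wild type cells. Socs1 fell in ZnF4 mutant cells (-1.80 ± 0.12, adjusted p = 0.0014) and rose in ZnF1 mutant cells (0.61 ± 0.12, adjusted p = 0.0159). The ZnF1 call ended when the day term or the filter was removed and when any 1 ZnF1 or wild type library was left out (adjusted p up to 0.175). The phosphatase gene Dusp1 was higher in the ZnF1 mutant by 1.47 ± 0.15 (adjusted p = 0.00198). Sigirr, a decoy-like member of the receptor superfamily, was lower in both mutants (-0.44 ± 0.11 for ZnF1 and -0.69 ± 0.11 for ZnF4), and leaving out any 1 library of the genotypes compared ended either call (adjusted p up to 0.208). The NF-κB inhibitor Nfkbia (0.55 ± 0.10, adjusted p = 0.00991) and Tnip1 (0.48 ± 0.08, adjusted p = 0.00766), which restrains NF-κB signalling, were higher in ZnF1 mutant cells. Nfkbia lost that call when the day term was removed (adjusted p = 0.132). It also lost it when either wild type library or the day 28 ZnF1 library was left out, at differences of 0.42 to 0.59. Tnip1 lost its call when any 1 ZnF1 or wild type library was left out, at differences of 0.44 to 0.53. The kinase-dead relative Irak3 (-0.84 ± 0.18, adjusted p = 0.0331) and the lipid phosphatase gene Inpp5d (-0.35 ± 0.07, adjusted p = 0.031) were lower in ZnF4 mutant cells, and both calls ended when low values were kept or when either wild type or either ZnF1 library was left out (adjusted p up to 0.28). The call of Inpp5d also ended without either ZnF4 library, and that of Irak3 without the day term (adjusted p = 0.0507) and without the day 28 ZnF4 library (-0.52, adjusted p = 0.0693).

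Cytokine genes that the receptors induce were mostly near 0. Of 20 listed genes 9 were tested, and Il12b and Ifnb1 were listed at 0 in every library. Il1b reached at most 0.5 RPKM and Il6 at most 0.2 RPKM. Tnf had 34.4 and 47.7 RPKM in ZnF1 mutant cells, 25 and 25.1 RPKM in ZnF4 mutant cells, and 41.6 and 30.6 RPKM in wild type cells, and was called in neither mutant (adjusted p = 0.527 and 0.172). In the ZnF1 mutant 6 of the 9 were called higher and 0 lower (median 1.18), among them the interleukin receptor antagonist Il1rn (2.04 ± 0.22), the chemokines Ccl3 (1.69 ± 0.10) and Ccl4 (1.18 ± 0.12), and Il18 (1.48 ± 0.10). The ZnF4 mutant had 2 higher and 2 lower (median -0.29), beside 10.9% and 7.32% of all tested genes, and the ZnF1 count stands beside 22.9%. The lower genes were Ccl3 (-0.56 ± 0.10, adjusted p = 0.019) and Ccl4 (-0.49 ± 0.12, adjusted p = 0.0468), and leaving out any 1 of the 6 libraries or keeping low values ended both calls (adjusted p up to 0.258); removing the day term ended that of Ccl3 (adjusted p = 0.191). Il18 had 2.5 and 2.2 RPKM in ZnF1 mutant cells, 1.9 and 1.4 RPKM in ZnF4 mutant cells, and 0.3 and 0.1 RPKM in wild type cells, with a ZnF4 difference of 1.14 ± 0.10 (adjusted p = 0.00254) that missed the threshold once the day 28 wild type library was left out (adjusted p = 0.0502). Ccl2 rose by 2.84 ± 0.43 in ZnF4 mutant cells (adjusted p = 0.0122), and its difference was 2.35 to 3.33 but no longer called when either wild type library was left out or low values were kept (adjusted p up to 0.134).

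Pattern receptors outside the family were called higher in 10 and lower in 0 of 17 tested cases in the ZnF1 mutant (median 0.76), and higher in 2 and lower in 6 in the ZnF4 mutant (median -0.56). The shares over all tested genes were 22.9% higher and 15.2% lower for ZnF1, and 10.9% higher and 7.32% lower for ZnF4. Among those with the smallest p in the ZnF1 mutant were the macrophage lectins Clec7a (2.43 ± 0.18) and Clec4d (2.30 ± 0.20) and the scavenger receptor Msr1 (2.02 ± 0.17), with adjusted p of 0.00119, 0.00155 and 0.00139. The lectin adaptor gene Card9 was higher in the ZnF4 mutant (1.27 ± 0.11, adjusted p = 0.00248), while the kinase gene Sykb (-0.81 ± 0.07, adjusted p = 0.00233) and the RNA sensor gene Ddx58 (-0.98 ± 0.09, adjusted p = 0.00312) were lower. Leaving out either wild type library ended the calls of Sykb and Ddx58 (adjusted p up to 0.0595 and 0.0623), as did leaving out the day 28 ZnF4 library for Ddx58. The lectin gene Clec4n had 11.6 and 13.3 RPKM in ZnF1 mutant cells, 0.4 and 1 RPKM in ZnF4 mutant cells, and 3.4 and 3 RPKM in wild type cells, called higher in the ZnF1 mutant (1.68 ± 0.17, adjusted p = 0.00198) and lower in the ZnF4 mutant (-1.33 ± 0.17, adjusted p = 0.00732). Its ZnF4 call ended without the filter, without either ZnF4 library or without the day 21 wild type library (adjusted p up to 0.0719).

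Set against the ZnF1 mutant directly, ZnF4 mutant cells had 8 lower and 1 higher of the 17 partner and trafficking genes, 9 lower and 1 higher of the 24 adaptors and kinases, and 9 lower and 1 higher of the 14 transcription factors. They had 8 lower and 0 higher of the 15 inhibitors, 8 lower and 0 higher of the 9 cytokine genes, and 12 lower and 1 higher of the 17 pattern receptors. Over all tested genes 23.2% were called lower and 22.3% higher in this comparison. The 4 higher genes were Ly86 (1.88 ± 0.16), Aim2 (0.66 ± 0.20), Irf8 (0.50 ± 0.14) and Traf6 (0.33 ± 0.09), Aim2 being named after its values were seen. Irf8 and Traf6 lost these calls under quantile scaling, when low values were kept and in most fits that left out 1 library, with 0.25 for Irf8 without the day 28 ZnF4 library and 0.20 for Traf6 without the day 28 ZnF1 library. Irf8 also lost it without the day term (adjusted p = 0.175). Of the lower genes named next, Cebpb and Cxcl10 passed the filter through the ZnF1 libraries alone. Among the lower genes, by the smallest p in each list, were Clec4n (-3.00 ± 0.17), the myeloid factor Cebpb (-2.15 ± 0.22), Cd44 (-1.44 ± 0.07), the chemokine gene Cxcl10 (-1.22 ± 0.12), Nfkbia (-0.91 ± 0.10), the Tlr4 and Tlr2 adaptor Tirap (-0.69 ± 0.11) and Tnip1 (-0.53 ± 0.08), with adjusted p of at most 0.00676. Tirap lost this call under quantile scaling (adjusted p = 0.0546) and when either ZnF1 library was left out, and Tnip1 lost it when the day 21 ZnF1 library was (adjusted p = 0.06).

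For the 3 most abundant of the 10 genes the closest profiles over the 6 libraries were sought, by the root mean square difference of row-centred log2(RPKM + 1) values over all other tested genes. Those nearest to Cd14 were C5ar1 (0.103), Cfp (0.106) and Neurl3 (0.108). Those nearest to Tlr13 were Mmp12 (0.098), Smpdl3a (0.104) and Fabp4 (0.108). Those nearest to Tlr9 were Arl8a (0.064), Itgav (0.069) and Tmem171 (0.069). C5ar1, the complement C5a receptor of myeloid cells, had 48.9 and 45.2 RPKM in ZnF1 mutant cells, 4.1 and 4.8 RPKM in ZnF4 mutant cells, and 9.1 and 7.4 RPKM in wild type cells. C5ar1 was picked for its likeness to Cd14 in these libraries, so the order it shares with Cd14 is no separate result.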

How the data were processed

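Poly(A) RNA of 6 libraries was compared, 1 for each of 3 genotypes at 2 days. The tools bedtools and TopHat and the build mm9 are named, without versions, per the submitters' processing notes. No strand-marking step is named in the labels' protocols, so antisense reads cannot be told apart. The authors deposited 1 table of RPKM values with 26531 RefSeq rows, rounded to 1 decimal, and 1 stray entry was left out. The depth is unknown: low values of rows under 160 bases fell on single-read steps in 25% to 33.8% of cases, against 30.8% to 36.7% with shuffled lengths. The row with the highest mean stood for each symbol, and each of the 10 genes has 1 row.

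Genes with at least 1 RPKM in at least 2 libraries were tested on log2(RPKM + 1) with limma 3.58.1 (R 4.3.3), with genotype and day as additive terms, a mean-variance trend, 2 residual degrees of freedom and a prior of 3.22. The labels give the day, which pairs libraries as a block; changes between the days correlated across genes between genotypes at 0.226, 0.249 and 0.433. Intervals are 95%. On simulated data for the ZnF1 comparison (11379 genes, 200 changed), 68% of differences of 1 and 94% of differences of 2 were recovered, and 0% of differences of 0.5. In the data 4336 genes were called in this comparison, which makes the adjusted threshold less strict than in the simulation. These shares therefore do not carry over to the data, where differences below 0.5, such as that of Myd88, were called. Alternatives were a pseudocount of 0.1, no filter, quantile and median-ratio scaling, summed rows, no block and leaving out each library. The genes and lists were chosen with earlier results of these data known. Named were the 10 genes, up to 4 called genes of each list with the smallest p, a fixed set (such as Myd88 and Tnf), and nearest profiles. 3 list symbols were matched through synonyms, and 1 listed B cell marker is not reported here.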

Additional observations from a re-analysis of the deposited data

How the results depend on the processing

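Each of the 10 genes kept its direction in the ZnF1 mutant under every alternative run, with 9 called under quantile scaling and 9 to 10 when 1 library was left out. Against the ZnF1 mutant, 7 were called lower in the ZnF4 mutant under quantile scaling and 8 to 9 with 1 library left out. In the ZnF4 mutant against wild type the 3 calls rest on each of the 4 ZnF4 and wild type libraries and held without either ZnF1 library: 0 to 2 genes were called higher and 0 to 1 lower with 1 library left out. The lower calls numbered 2 with a pseudocount of 0.1 and 0 without the filter. Over all genes, leaving out 1 library gave 1398 to 4475 calls in the ZnF1 mutant, 346 to 1230 in the ZnF4 mutant and 2526 to 3896 between the mutants, fewer samples being tested. Without the filter 1137 genes were called in the ZnF4 mutant. Without the block on day 3653, 1687 and 4632 genes were called in the ZnF1, ZnF4 and mutant comparisons, and of the 10 genes only Tlr6 between the mutants lost its call (8 lower). Il18 differed between the mutants by 0.019 under quantile scaling, against -0.34 as deposited (ZnF4 minus ZnF1), and the cause was not tested. With no read counts, counting error cannot be given, and Tlr1, Tlr3 and Tlr6 in wild type lie within a few rounding steps of 0.1 RPKM.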
